A study of Camponotus floridanus with 24 samples.

Results

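In the Florida carpenter ant, Camponotus floridanus, some larvae of the terminal stage carried a scarce microRNA at a median of 99.6 RPM (reads per 1000000 reads of the library) and others at a median of 7.80 RPM, and these larvae were compared. The microRNA was listed as 6 hairpins with the same read count in every library. They were found as the largest group of differently named first-listed rows with identical counts, among first-listed rows that reached 10 reads in 12 or more of the 24 libraries. Larvae with the row at or above 20 RPM were called high, which gave 14 of 24, and the other 10 were called low. The larvae were thus chosen by the measured level of this row, and its difference between the classes is given as a description, with no test. These classes were read from the counts and are not groups of the study.

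All 24 libraries came from whole bodies of female larvae at the last larval stage, 1 larva per library, and small RNA was sequenced after size selection. The series belongs to a project on what sets worker size in this ant, and the labels give each larva a length of 4648.07 to 7598.06 µm. They name no treatment, genotype or colony, so all larvae form 1 group that differs in length. The libraries also divided into sets of 9 and 15 that the labels do not give, found as the widest gap in the level of any other row tested that left 5 or more libraries on each side. Total reads ran from 1638537 to 6128791 in the set of 15 and from 881734 to 2114243 in the set of 9, so the sets overlapped in depth. Both sets held larvae of both classes, with 8 high and 7 low in the set of 15 and 6 high and 3 low in the set of 9 (two-sided Fisher's exact test, p = 0.678).

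A microRNA is cut from a hairpin-shaped precursor, and either arm of the hairpin can yield a mature strand that is loaded into an Argonaute protein and guides it to matching messenger RNAs. Usually one arm is kept far more often than the other. MicroRNA genes can be duplicated, and copies that keep the same mature strand cannot be told apart by reads of that strand, although their opposite arms may differ. In insects, microRNAs act in growth, moulting and metamorphosis. The deposited tables list a first and a second row for each hairpin without saying which is which arm, and each name joins a scaffold to a serial number and carries no family name.

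The 6 hairpins lay on 3 scaffolds. NW_020229269.1_8666 was the one hairpin on its scaffold, NW_020229490.1_26823 and NW_020229490.1_26825 shared a second scaffold, and NW_020229854.1_40646, NW_020229854.1_40648 and NW_020229854.1_40662 shared the last. Because the same reads were counted for each of the 6, their level is that of 1 row and must not be added up. The row held 0.00621% of the reads on average and ranked 151 by mean share of reads. Its standard deviation over the 24 larvae was 1.88 on the scale of log2(RPM + 1), against a median of 0.41 over the 330 other rows tested, and 5 of those rows varied more.

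In the 14 high larvae the first-listed row had 32.0 RPM at the lowest, 99.6 RPM at the median and 149.9 RPM at the highest. In the 10 low larvae it had 3.05 RPM at the lowest, 7.80 RPM at the median and 14.3 RPM at the highest. The median was 12.8-fold higher in the high larvae. In the set of 15 libraries the medians were 116 RPM in 8 high larvae and 8.20 RPM in 7 low larvae, and in the set of 9 they were 73.0 RPM in 6 high larvae and 7.39 RPM in 3 low larvae. The low larvae were not without reads: each had between 3 and 65, and 277 reads were counted over all 10, against 5166 over the 14 high larvae.

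**Figure D1:**
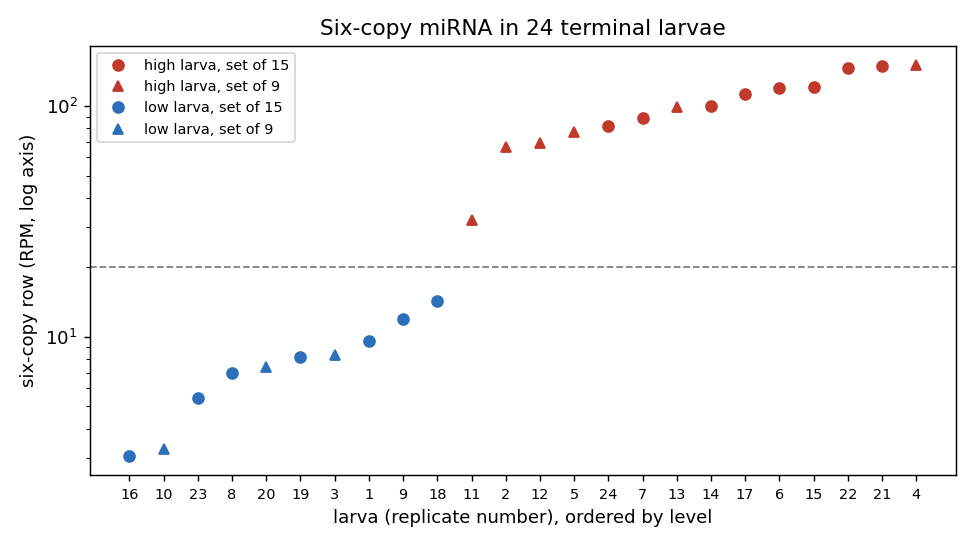
Level of the six-copy row in each of 24 larvae, in RPM on a log axis, ordered by level; colour marks the class, the marker shape marks the library set, and the dashed line is the cut at 20 RPM. The 10 low larvae lie between 3.05 and 14.3 RPM and the 14 high larvae between 32.0 and 149.9 RPM.

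The larvae nearest the cut were replicate 18, a low larva at 14.3 RPM, and replicate 11, a high larva at 32.0 RPM. Replicate 18 had 65 reads, with an exact 95% Poisson interval of 11.03 to 18.2 RPM. Replicate 11 had 29 reads and an interval of 21.4 to 45.9 RPM, so counting error alone leaves both on their own side of the cut. The step between them was 2.24-fold, and the next step, from replicate 11 to replicate 2 at 66.4 RPM, was 2.08-fold. Replicate 11 thus lay about as far from the other high larvae as from the low ones.

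The second-listed rows of the 6 hairpins were not used to form the classes, and they fell into 2 kinds of 3 identical rows each. Row A was the second-listed row of NW_020229269.1_8666, NW_020229490.1_26823 and NW_020229854.1_40648, and row B that of NW_020229490.1_26825, NW_020229854.1_40646 and NW_020229854.1_40662. The scaffolds with several of the hairpins thus held both kinds. Within each library set, both second-listed rows were higher in every high larva than in every low larva. They belong to the same hairpins, so they are no separate locus.

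Row B had 2.60 RPM at the lowest, 4.63 RPM at the median and 7.75 RPM at the highest in the 14 high larvae. In the 10 low larvae it was at 0 reads in 6 and reached 1.09 RPM at the highest. Every high larva lay above every low larva, with 186 reads against 6 in all, or 4.11 RPM (exact Poisson 95% interval 3.54 to 4.74) against 0.192 RPM (0.0706 to 0.419) over the pooled reads, a 21.3-fold ratio. A two-sided exact permutation test on log2(RPM + 1) gave p = 5.1e-07, the smallest that 14 larvae against 10 allow. Within the set of 15 libraries the p was 0.000155 and within the set of 9 it was 0.0119, each again the smallest possible in an exact permutation test. Row B comes from the same hairpins as the row that set the classes. A difference was therefore likely in advance, and these p-values are no separate support for the classes. Row B reached 10 reads in 10 libraries, all from high larvae, and so stood outside the count filter. Over all 811 rows with a read in any library, leaving out the 6, these 3 identical rows were the only ones in which all high larvae lay above all low larvae (0.37% of the rows), and 0 rows showed the opposite order. Rows with very few reads among the 811 could not show either order, so this share does not measure how rare it is.

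Row A had 1.02 RPM at the lowest, 4.48 RPM at the median and 55.3 RPM at the highest in the 14 high larvae. In the 10 low larvae it had 0 RPM in 4, a median of 0.234 RPM and 1.12 RPM at the highest. The classes overlapped over all 24 larvae, since the lowest high larva, replicate 7 in the set of 15, lay under the highest low larva, replicate 3 in the set of 9. Within each library set they did not overlap. In the set of 15 the high larvae ran from 1.02 to 4.65 RPM and the low larvae from 0 to 0.421 RPM. In the set of 9 the high larvae ran from 16.1 to 55.3 RPM and the low larvae from 0 to 1.12 RPM. All 12 libraries in which row A reached 10 reads came from high larvae, so it entered the count filter only through the class where it was high, and these values are a description with no test.

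Among the 330 rows tested, 3 (0.909%) had all high larvae above all low larvae within both library sets, and these are the 3 identical rows of kind A, which the filter had kept for their level in the high larvae, so nothing is read from this count. Over the 811 rows with any read there were 6 such rows (0.74%), which are the second-listed rows of the 6 hairpins. In both sets 0 rows had all high larvae below all low larvae, and rows with very few reads could show neither order. In the low larvae both second-listed rows stood at 0 to 2 reads, under the floor of 3 reads, which was 0.631 RPM in the deepest low library and 3.27 RPM in the shallowest. Some low larvae had reads of each row, and whether the strands were absent from those at 0 reads was not detectable at this depth. Reads carry no molecular identifiers, so intervals and floors cover counting error only.

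**Figure D2:**
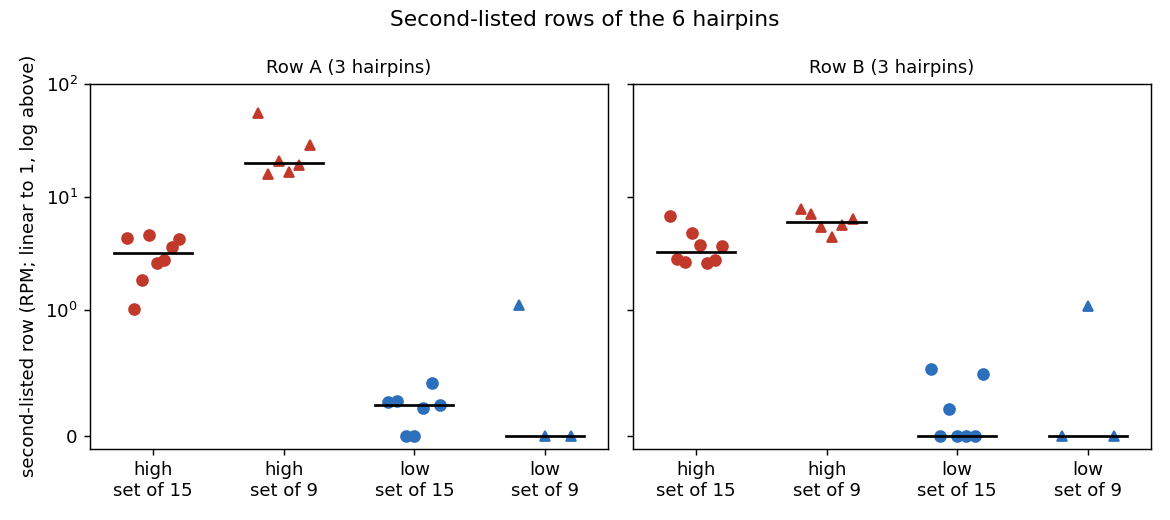
Level of row A (left) and row B (right), the second-listed rows of 3 hairpins each, in RPM (linear to 1, logarithmic above), by class and library set; points are larvae and bars are medians. Every high larva lies above every low larva in the right panel and, within each library set, in the left panel, where the high larvae of the set of 9 reach 55.3 RPM.

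The proportion of second-listed to first-listed reads in the high larvae was larger in the set of 9 than in the set of 15. In the high larvae of the set of 15 row A had 2.64% as many reads as the first-listed row (117 against 4431 reads; exact binomial 95% interval 2.18 to 3.17%). The figure was 2.42% in the low larvae of that set (6 against 248 reads; 0.879 to 5.34%). The intervals of the 2 classes overlapped there, and that of the low larvae was wide. In the high larvae of the set of 9 it was 26.1% (192 against 735 reads; 22.2 to 30.7%), from 10.7% in replicate 4 to 83.3% in replicate 2. It was 6.90% in the low larvae of the set of 9 (2 against 29 reads; 0.797 to 27.3%), an interval that overlapped those of the low larvae of the set of 15 and of the high larvae of the set of 9. Row B had 3.09% as many reads as the first in the high larvae of the set of 15 and 6.67% in those of the set of 9. The denominator of these shares is the row that chose the larvae, so they are a description. The intervals are of reads pooled over larvae and leave out the spread between larvae, so their overlap is no test of a difference.

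The question of the project is what accompanies worker size, and the lengths of the high and low larvae overlapped. High larvae measured 4648.07 µm at the shortest, 6081 µm at the median and 7371.47 µm at the longest. Low larvae measured 4942.55 µm at the shortest, 6505 µm at the median and 7598.06 µm at the longest. Mean length was 6059 ± 915 µm (SD, n = 14) in the high and 6303 ± 968 µm (SD, n = 10) in the low larvae, a difference of -244 µm (two-sided exact permutation test, p = 0.532, adjusted p = 0.777 over 8 measures). High larvae made up 5 of the 8 shortest, 5 of the 8 middle and 4 of the 8 longest larvae.

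Within the classes the relation of the level to length did not pass a test either. Pearson's r of log2(RPM + 1) with length was -0.315 in the 14 high larvae (permutation p = 0.281, adjusted p = 0.374 over 4 relations) and -0.311 in the 10 low larvae (permutation p = 0.374, adjusted p = 0.374). Spearman's rho was -0.310 (permutation p = 0.284) and -0.430 (permutation p = 0.218), with an adjusted p of 0.284 for both. Leaving out the 2 larvae whose length was farthest from the median gave r of -0.240 in the high and -0.213 in the low larvae. Within the library sets r was -0.0373 in 8 high larvae and -0.383 in 7 low larvae of the set of 15, and -0.721 in 6 high larvae of the set of 9 (exact permutation p = 0.924, 0.397 and 0.129).

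Within the high larvae the level rose with the total reads of the library. In the 14 high larvae r was 0.684 (permutation p = 0.00371, adjusted p = 0.0148) and rho was 0.754 (permutation p = 0.00299, adjusted p = 0.0120). In the 10 low larvae r was 0.687 (permutation p = 0.0314, adjusted p = 0.0628) and rho was 0.612 (permutation p = 0.0661, adjusted p = 0.132). Without the 2 larvae farthest from the median of total reads, r was 0.633 in the high larvae (permutation p = 0.0166, adjusted p = 0.0663) and 0.638 in the low larvae (permutation p = 0.0855), and neither then passed after adjustment. Within the library sets r was 0.749 in 8 high larvae of the set of 15, 0.830 in 6 high larvae of the set of 9 and 0.831 in 7 low larvae of the set of 15 (exact permutation p = 0.0375, 0.0389 and 0.0214, not adjusted); the set of 9 held 3 low larvae, too few for a value. Of the 330 other rows, 16 (4.85%) had as high an r in the high larvae and 14 (4.24%) in the low larvae, where the median r was -0.124 and -0.103. Total reads themselves did not differ between the classes beyond their spread, with 3235153 ± 1895893 reads (SD, n = 14) in the high and 3117475 ± 1492638 reads (SD, n = 10) in the low larvae (two-sided exact permutation test, p = 0.870, adjusted p = 0.870). The part of depth in the levels was not tested.

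**Figure D3:**
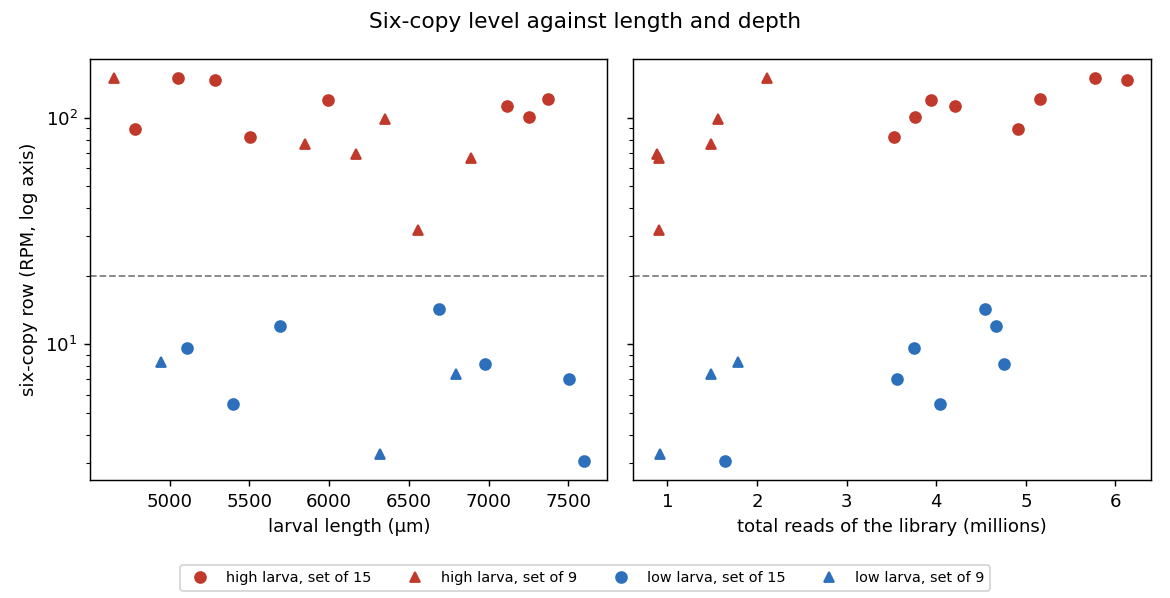
Six-copy level of each larva in RPM (log axis) against larval length in µm (left) and total reads in units of 1000000 (right); colour marks the class, the marker shape marks the library set, and the dashed line is the cut at 20 RPM. Both classes occur from 4942.55 to 7371.47 µm, with 2 high larvae shorter and 2 low larvae longer than that, and against total reads r was 0.684 in high and 0.687 in low larvae.

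The other microRNAs were then compared between high and low larvae with length as a covariate, by edgeR's quasi-likelihood F test on the read counts with Benjamini-Hochberg adjustment at 0.05. Of 330 rows, 3 were higher in the high larvae (0.909%) and 0 were lower (0%). The 3 are the identical rows of kind A, with a log2 difference of 5.37 (SE 0.89, 95% interval 3.53 to 7.22). As row A entered the test only through the class where it was high, a difference was likely in advance. Its passing is not read as a result, and its values here and under other settings are a description. The log2 difference was 3.68 by limma-voom, 4.65 with log10 total reads as a further covariate, 4.51 with the library set as a covariate, and 3.80 in the set of 15 and 5.67 in the set of 9 alone. Row A did not pass with the classes cut at 10 RPM (log2 difference 4.85, adjusted p = 0.0613, edgeR) or at 50 RPM (3.69, adjusted p = 0.0803, edgeR), nor with a slope on the log2 level in place of classes (1.18, adjusted p = 0.0603, edgeR). Before adjustment 14 rows (4.24%) had p under 0.05, of which 5 were higher (1.52%) and 9 lower (2.73%). Of the 327 rows of other hairpins, 0 passed, and 11 lay under 0.05 before adjustment, where 16.35 would by chance. DESeq2 and limma-voom also called 0 of these 327, with 9 and 14 rows at an unadjusted p under 0.05.

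Few of the other rows left room for a large difference. For 310 of the 327 rows the 95% interval of the difference lay within 2-fold in both directions, and for 235 it lay within 1.5-fold. The median log2 difference of the 327 rows was 0.01, with quartiles of -0.11 and 0.11, and 169 rows were above 0 and 158 below. The 17 rows whose interval reached 2-fold came from 14 hairpins, and 6 of these rows lay on a single scaffold. The interval reached a 2-fold rise in 13 of them and a 2-fold fall in 7, so such differences could not be shown or bounded for these rows at this sample size.

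**Figure D4:**
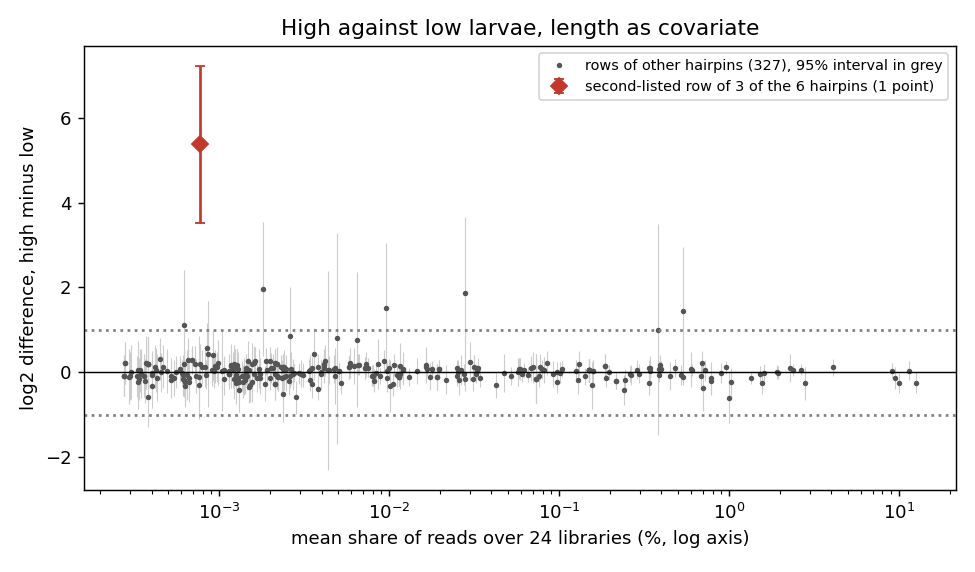
Log2 difference between high and low larvae (high minus low, length as covariate) of 330 rows against their mean share of reads in percent (log axis), with 95% intervals; dotted lines mark 2-fold. The second-listed row of 3 of the 6 hairpins lies at 5.37, and 310 of the 327 other rows have intervals within the dotted lines.

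The rows were also described by kind, and the lists were not tested against each other. Of 227 first-listed rows 0 passed in either direction and the median log2 difference was 0.02, and of 103 second-listed rows 3 passed, the rows of the 6 hairpins, with a median of -0.01. Of 51 rows whose counts were identical to those of another row, the same 3 passed, with a median of 0.03. Of 262 rows from hairpins that share a scaffold with another tested hairpin 0 passed, with a median of 0.03. The median of all 330 rows was 0.01. On the 3 scaffolds of the 6 hairpins, no row of any other hairpin reached the count filter.

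None of the 20 most abundant rows passed edgeR's test. Before adjustment 3 of the 20 lay under 0.05, where 1 would by chance, beside 4.24% of all 330 rows. The median log2 difference of the 20 rows was -0.02. The most abundant row took 7.84% of the reads at the lowest, 12.4% at the median and 14.8% at the highest in the high larvae. In the low larvae it took 9.51%, 13.8% and 16.3% in the same order, with overlap and a log2 difference of -0.25 (95% interval -0.49 to -0.00013, adjusted p = 0.888, edgeR). The row ranked 3 took 9.65% ± 2.00 (SD, n = 14) in the high and 10.7% ± 1.80 (SD, n = 10) in the low larvae, a log2 difference of -0.25 (95% interval -0.49 to -0.0096, adjusted p = 0.888, edgeR). The row ranked 14 took 1.47% ± 0.299 and 1.68% ± 0.249, with a log2 difference of -0.26 (95% interval -0.51 to -0.0038, adjusted p = 0.888, edgeR). The widest interval among the 20 was that of rank 18, from -1.21 to 0.0036 around -0.60, and those of the other 19 lay within 2-fold.

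**Figure D5:**
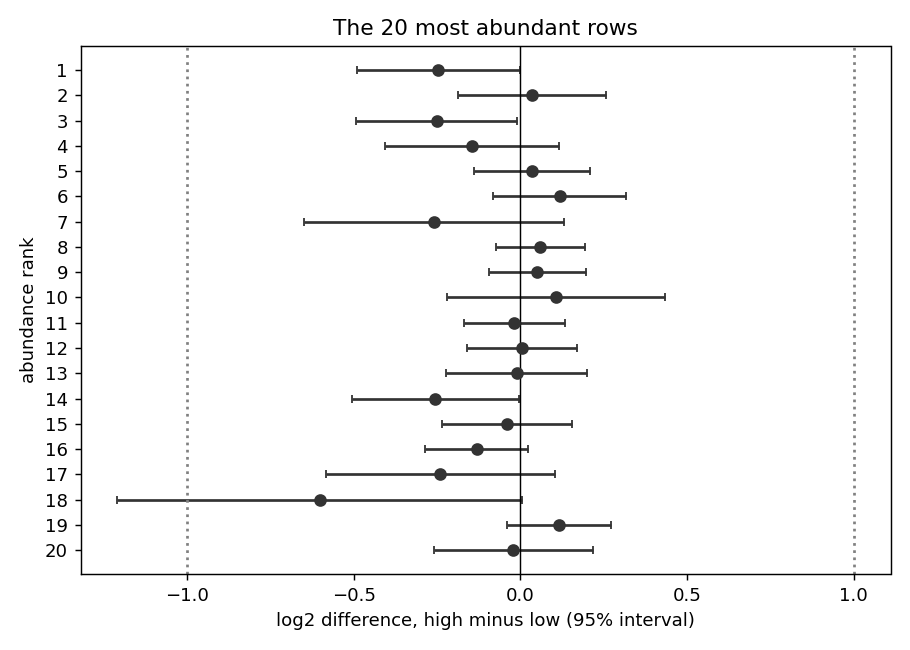
Log2 difference between high and low larvae (high minus low, length as covariate) of the 20 most abundant rows, with 95% intervals; dotted lines mark 2-fold. 19 of the 20 intervals lie within the dotted lines, and that of rank 18 reaches -1.21.

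Outside the 6 hairpins, the smallest p belonged to rows that did not pass. The first-listed row of rank 187 had 14.7, 25.9 and 34.5 RPM at the lowest, the median and the highest in the high larvae. In the low larvae it had 18.6, 31.4 and 59.8 RPM. The classes overlapped, and the log2 difference was -0.59 (SE 0.19, adjusted p = 0.307, edgeR). The second-listed row of rank 176 had 18.8, 35.6 and 48.1 RPM in the high larvae in the same order. In the low larvae it had 31.1, 41.6 and 58.7 RPM, with overlap and a log2 difference of -0.39 (SE 0.13, adjusted p = 0.315, edgeR). The row of rank 48 had medians of 2185 RPM in the high and 2531 RPM in the low larvae and a log2 difference of -0.42 (adjusted p = 0.888, edgeR).

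The largest differences that did not pass belonged to a hairpin whose level is uneven among larvae of both classes. Its first-listed row, of rank 100, had 15.6, 101 and 2074 RPM at the lowest, the median and the highest in the high larvae. In the low larvae it had 3.21, 24.6 and 386 RPM. Replicates 11 and 2, both high larvae of the set of 9, stood at 2074 and 2053 RPM, and every other larva was at 538 RPM or less. The log2 difference was 1.87 (SE 0.86, 95% interval 0.09 to 3.66, adjusted p = 0.888, edgeR), and with the cut at 50 RPM, which moves replicate 11 to the low class, it was 0.08. With the main cut it was 1.45 without replicate 11 and 1.60 without replicate 2. The second-listed row, of rank 222, had a log2 difference of 1.96 (SE 0.76, adjusted p = 0.888, edgeR), and 0.09 with the cut at 50 RPM. With the main cut this row had 1.46 without replicate 11 and 1.60 without replicate 2.

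The relation of other microRNAs to length was also compared between the classes. With class as a covariate, 33 rows rose and 38 fell with length, together 21.5% of the 330 (edgeR, adjusted p under 0.05). A term for a different slope in high and low larvae passed in 0 of 330 rows (0%). Before adjustment 6 rows (1.82%) lay under 0.05, where 16.5 would by chance, with 5 slopes higher in the high larvae (1.52%) and 1 lower (0.303%); DESeq2 also gave 0, with 5 rows at an unadjusted p under 0.05. The balance of both rows of a hairpin, as the log2 ratio of first-listed to second-listed reads, was tested in the 100 hairpins that had both rows tested and lay outside the 6. By limma 0 of 100 passed (0%), and 4 (4%) lay under 0.05 before adjustment, where 5 would by chance; the ratios were put through no further tool. The smallest adjusted p of a ratio was 0.680.

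The composition of the libraries as a whole was compared last. Shannon diversity was 4.90 ± 0.115 bits (SD, n = 14) in the high and 4.83 ± 0.0824 bits (SD, n = 10) in the low larvae (two-sided exact permutation test, p = 0.101, adjusted p = 0.281). The 20 most abundant rows held 80.2% ± 2.74 and 81.7% ± 1.26 of the reads (exact permutation p = 0.141, adjusted p = 0.281). Second-listed rows held 5.09% ± 0.245 and 5.04% ± 0.191 (exact permutation p = 0.583, adjusted p = 0.777). Rows with at least 1 read numbered 586 ± 61.0 and 577 ± 57.1 (exact permutation p = 0.730, adjusted p = 0.834). At the depth of the smallest library, 484 ± 10.4 rows were expected in the high and 474 ± 9.85 in the low larvae, a difference of 9.99 rows (exact permutation p = 0.0282, adjusted p = 0.226). None of the 8 measures passed after adjustment, which does not show that they were equal.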

How the data were processed

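Small RNA of 24 whole larvae was extracted with an AllPrep kit, prepared with the TruSeq small RNA kit from size-selected cDNA and sequenced on an Illumina HiSeq instrument, per the labels' protocols. bcl2fastq 2.20 and Trim Galore 0.6.7 are named in the submitters' processing notes; an aligner, a miRNA caller and a genome build are not named in the labels or file headers. Each deposited table holds raw read counts for 924 rows. The deposited RPM equals the count per 1000000 of the library total, to within 0.0050.

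Rows with counts written with a decimal point form the first-listed block. Names repeated within a block (5 cases) were collapsed to their maximum, leaving 918 rows, of which 336 passed the filter (10 reads in 12 libraries, 99.97% of reads) and 330 were tested without the 6. Tests used edgeR 4.0.16 (TMM, robust), limma 3.58.1 (log2 ratios of counts plus 0.5) and DESeq2 1.42.0 in R 4.3.3; relations used 100000 resamples. Scripts were tested on simulated data. No library pair agreed within sampling noise (smallest chi-square per degree of freedom 24.9 over 276 pairs). Larvae are named by replicate number in accession order.

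The classes, members and lists were chosen with earlier results of these data known. Rows were named by identifier (the 6 hairpins) or by abundance rank (the smallest p, the 20 most abundant). Fits with the library sets were added after the data were seen. No identifier is paired with a miRNA name or sequence, so the preset list of named miRNAs was not used. Nothing in the labels says whether larvae share a colony. The p-values rest on the spread between these larvae taken as independent, which could not be checked.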

Additional observations from a re-analysis of the deposited data

Results flagged for a closer look

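The values of the 10 low larvae were searched for a larva far from the others in 16 measures, and 2 were picked out. Chance picks out about 1 in 20 such sets where values are normally distributed. That rate need not hold for the 2 picked out, in which 4 and 6 of the 10 low larvae had 0 reads. The 14 high larvae are too many for this search. In row A, the second-listed row of 3 of the 6 hairpins, replicate 3 had 1.12 RPM against 0.421 RPM in the next low larva, a gap of 0.623 of the range. In row B, that of the other 3, replicate 10 had 1.09 RPM against 0.533 RPM in the next, a gap of 0.511 of the range. Both libraries belong to the set of 9, and the values rest on 2 and 1 reads, under the floor of 3 reads.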

How the results depend on the processing

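The main counts were 3 rows higher and 0 rows lower in the high larvae. Both stayed the same under the other scaling factors, DESeq2, limma-voom, no covariate, log10 total reads as a covariate, the 7 high and 10 low larvae in the range of depth covered by both classes, and, chosen after seeing the data, the library set as a covariate and each library set alone. Leaving out each larva in turn gave 3 higher and 0 lower each time. In these runs the 3 were the rows of kind A, which the filter had kept for their level in the high larvae. Nothing is read from that count staying the same. Of the 327 rows of other hairpins, 0 passed under the other scalings, tools, covariates and range of depth. The same held in each library set alone and with each larva left out. Rows higher numbered 6 without a filter on low counts, alone or with the library set as a covariate, 1 with identical rows collapsed, and 0 with 10 reads required in all libraries, with first-listed rows only, with the classes cut at 10 or 50 RPM and with a slope on the log2 level. The 6 are the second-listed rows of the 6 hairpins; the strict filter and the first block hold none of these rows. With the other cuts and the slope, row A kept its direction but did not pass; the cause was not tested. Rows lower numbered 1 without a filter, a row with 8 reads in all, each in a low larva (adjusted p = 0.0257, edgeR), and 0 once the library set was also a covariate. Tests of the slope on length and of the ratio gave 0 in every alternative run and without each larva. The difference in the share of second-listed rows was -0.0219 percentage points with the cut at 50 RPM. Without 1 larva, the difference in total reads ran from -126840 to 299632 and that in rows with a read from -1.44 to 15.7, and none passed. The relation of the six-copy level to total reads in the high larvae, r = 0.633 without the 2 farthest larvae, then had an adjusted p of 0.0663. No paired analysis was possible because all larvae form 1 labelled group.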

Other observations

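Among the 14 high larvae, the level of the 330 rows tested was set against the level of the six-copy row, with length as a covariate. The 330 include the 3 identical rows of kind A, which belong to the same hairpins. Whether those 3 are among the rows counted below was not examined, so the counts are a description. By edgeR 16 of 330 rows rose and 5 fell with it (adjusted p under 0.05), and 89 had an unadjusted p under 0.05. With the library set as a further covariate 5 of 330 rose and 1 fell, and 62 had an unadjusted p under 0.05. In the 8 high larvae of the set of 15 alone 0 rows passed (72 at an unadjusted p under 0.05; smallest adjusted p = 0.0517, edgeR; no other tool was run). In the 10 low larvae 0 passed (28 at an unadjusted p under 0.05; smallest adjusted p = 0.485, edgeR). Total reads moved with the six-copy level in these larvae (r = 0.684 in the high and 0.687 in the low), and their part in these counts was not tested.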
